A study of Homo sapiens with 6 samples.

Results

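The genes described here make ribosomes: 38 ribosome biogenesis and nucleolar factors, taken by gene symbol from a count table of 26699 genes. All 38 symbols were found, and all 38 genes were among the 15562 tested. The table comes from OVCA433 cells, a long-established line of human ovarian carcinoma, and holds 3 libraries of a group named si and 3 of a group named sinc. Neither name is spelled out in the labels, which also give no dose, time or reagent sequence; by its title the study concerns deficiency of SOGA1, which encodes a coiled-coil protein. Whether the 3 libraries of each group are separate cultures is not stated, so p-values reflect only how far these libraries differ, which may be technical.

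Ribosome production begins in the nucleolus, where RNA polymerase I transcribes the precursor of the 18S, 5.8S and 28S ribosomal RNAs. Small nucleolar ribonucleoproteins (snoRNPs) then guide the modification of that precursor, the box C/D particles by 2'-O-methylation and the box H/ACA particles by pseudouridylation. The small-subunit processome folds and cleaves the 18S part, and separate sets of factors carry the small and the large subunit to the cytoplasm. MYC is known as a transcriptional activator of many of these genes, and nucleoli are often enlarged in carcinoma cells.

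Of the 38 genes, 7 were lower in si, 1 was higher and 30 did not pass the test in edgeR. MYBBP1A, which encodes a nucleolar MYB- and p53-binding protein, was 33.1% of its sinc level, and UTP20, which encodes a large scaffold of the small-subunit processome, was 49.0% of it. Smaller decreases were found for HEATR1, NOP58, NCL, RRP12 and POLR1A, and RRP9, which encodes a protein of the U3 snoRNP, was the gene that was higher. Calls were made at an adjusted p of 0.05 in the quasi-likelihood test of edgeR (two-sided, Benjamini-Hochberg over all 15562 genes), and every change is the log2 fold change of si minus sinc with its standard error (SE). By that rule 18.4% of the 38 genes were lower, beside 6.00% of all genes tested, and 2.63% were higher, beside 4.14% of all genes tested. Over all genes 934 were lower and 645 higher, and with upper-quartile scaling 890 were lower and 1005 higher; the 38 genes gave 7 lower and 1 higher under both scalings. The median change of the 38 genes was -0.06, against 0.0058 for all genes tested.

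Levels are given as CPM, the counts of a gene per 1000000 of the TMM-scaled library total. CPM values of the si and sinc groups did not overlap for 15 of the 38 genes. In 10 genes (26.3%) all 3 si libraries were the lower ones, beside 16.8% of all genes tested, and in 5 genes (13.2%) all 3 were the higher ones, beside 18.1% of all genes tested. The 10 were the 7 genes called lower together with LTV1, WDR12 and UBTF. The 5 were RRP9, FBL, NOP16, PES1 and NOC2L.

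**Figure D1:**
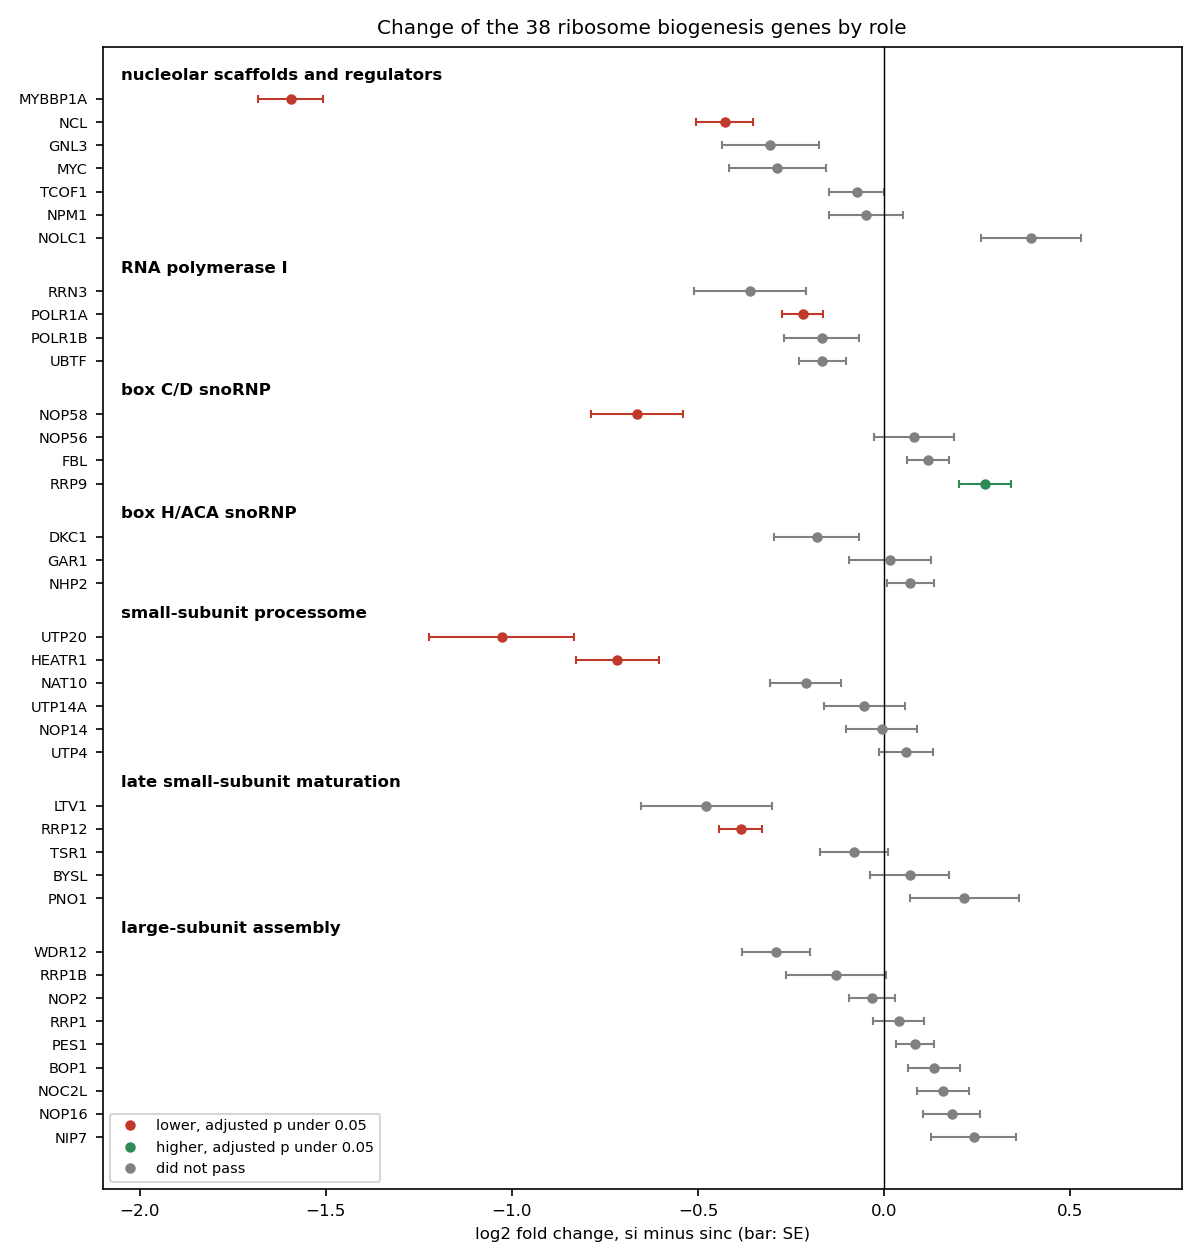
Log2 fold change (si minus sinc, horizontal axis) of each of the 38 genes, grouped by role, with bars of 1 standard error and colour for the call. MYBBP1A at -1.59 and UTP20 at -1.03 lie farthest to the left, RRP9 at 0.27 is the gene called higher, and none of the 9 large-subunit genes was called.

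Total counts per library ranged from 33778707 to 40144134 in si and from 38031056 to 44130601 in sinc, and the counts of the 38 genes ranged from 299 (LTV1) to 61047 (NPM1) in a library. SOGA1 had 25.3, 27.2 and 20.2 CPM in si and 64.4, 59.7 and 63.9 CPM in sinc, a log2 fold change of -1.37 (SE 0.11, adjusted p = 0.000963), so the si libraries were lower in the gene of the title. Of 10 ovarian carcinoma markers 7 were found, and MUC16, CDH1 and FOLR1 were not. The 7 had a sum of 7211 to 7676 CPM in si and 7053 to 7510 CPM in sinc. The keratin genes KRT7, KRT8 and KRT18 made up most of it. KRT7 had 2377 to 2585 CPM in si and 2222 to 2417 CPM in sinc. KRT8 had 2309 to 2505 and 2153 to 2296 CPM, and KRT18 had 1722 to 1941 and 1805 to 1978 CPM. PAX8 had 492.5 to 664 CPM in si and 664 to 707 CPM in sinc. WT1 had at most 6 counts and EPCAM at most 75 counts in a library. The sum of these markers therefore does not by itself show an ovarian origin. Of 9 markers of other cells 6 were found, and PTPRC, COL3A1 and HBB were not. The 6 had a sum of 146 to 165 CPM in si and 124 to 127 CPM in sinc. Most of that sum was the collagen gene COL1A1, with 125 to 138 CPM in si and 101 to 105 CPM in sinc, and most of the rest was the macrophage marker CD68, with 20.4 to 26.3 CPM in si and 19.0 to 24.8 CPM in sinc. The endothelial marker VWF had at most 33 counts in a library, and the T cell, endothelial and stromal markers CD3E, PECAM1 and DCN at most 6. The part of these differences in the results was not tested. In bulk RNA, fewer cells with a transcript and less of it per cell cannot be told apart.

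Among the 7 nucleolar scaffolds and regulators 2 were lower in si, none was higher and 5 did not pass, with a median change of -0.29. MYBBP1A (ENSG00000132382; chromosome 17, 4538897 to 4555631, minus strand, GENCODE 29 on GRCh38) had 58.1, 59.3 and 48.0 CPM in si libraries 1, 2 and 3, and 164, 167 and 170 CPM in sinc libraries 1, 2 and 3. The highest si library lay far below the lowest sinc library. The means were 55.1 ± 6.24 CPM for si and 167 ± 2.99 CPM for sinc (SD over 3 libraries per group), a log2 fold change of -1.59 (SE 0.09, adjusted p = 0.00022). The decrease of MYBBP1A passed in each of 17 alternative fits, with log2 fold changes from -1.66 to -1.51. SPNS2, a gene on the opposite strand that overlaps MYBBP1A, had 41 counts over the si libraries and 15 over the sinc libraries.

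NCL, which encodes nucleolin, an abundant RNA-binding protein of the nucleolus, lies on chromosome 2 (231453531 to 231483641, minus strand). It had 467, 450 and 454 CPM in si and 597, 564 and 684 CPM in sinc. The si libraries lay close together and all below the sinc libraries, which were more spread. The means were 457 ± 8.87 CPM for si and 615 ± 61.7 CPM for sinc (SD over 3 libraries per group), a log2 fold change of -0.43 (SE 0.08, adjusted p = 0.0177). The call was lost without si replicate 1, sinc replicate 1 or sinc replicate 3, with log2 fold changes between -0.49 and -0.35 and adjusted p between 0.0193 and 0.0714 over the 6 fits that leave out 1 library.

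MYC, the transcription factor, had 90.5, 82.6 and 121 CPM in si and 119, 119 and 121 CPM in sinc. Libraries 1 and 2 of si were below all sinc libraries, and library 3 was level with them. The means were 98.0 ± 20.2 CPM for si and 120 ± 1.26 CPM for sinc (SD over 3 libraries per group), with a log2 fold change of -0.29 (SE 0.13) that did not pass (adjusted p = 0.192). NPM1, which encodes nucleophosmin, a chaperone of the nucleolus, had 1279, 1171 and 1564 CPM in si and 1378, 1384 and 1390 CPM in sinc. For NPM1 si replicate 3 was the highest of the 6 libraries, and the sinc libraries were nearly level. The log2 fold change of NPM1 was -0.05 (SE 0.10, adjusted p = 0.783); 13 pseudogene rows of NPM1 held 5.15% as many counts as the gene, so that reads may have been split between them.

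The remaining 3 scaffold genes did not pass in edgeR, and DESeq2 called 1 of them, NOLC1. GNL3, which encodes the nucleolar GTPase nucleostemin, had 31.8, 35.4 and 46.1 CPM in si and 48.2, 45.9 and 46.0 CPM in sinc, with si replicate 3 alone inside the sinc range (log2 fold change -0.31, adjusted p = 0.166). On the opposite strand PBRM1 and GLT8D1 overlap GNL3, so reads may be mixed. PBRM1 had 1255 counts over the si libraries and 2141 over the sinc libraries, and GLT8D1 had 2075 and 2541. TCOF1, which encodes treacle, a nucleolar scaffold that binds RNA polymerase I, was between 214 and 239 CPM in si and between 227 and 260 CPM in sinc. NOLC1, which encodes the snoRNP chaperone Nopp140, had 135, 122 and 146 CPM in si and 90.7, 90.9 and 125 CPM in sinc. Only sinc replicate 3 of NOLC1 reached into the si range, and the log2 fold change of 0.39 (SE 0.13), the highest of the 38, did not pass (adjusted p = 0.101). Without sinc replicate 3 the NOLC1 change was 0.56 and passed, with adjusted p between 0.0428 and 0.305 over the 6 fits that leave out 1 library.

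**Figure D2:**
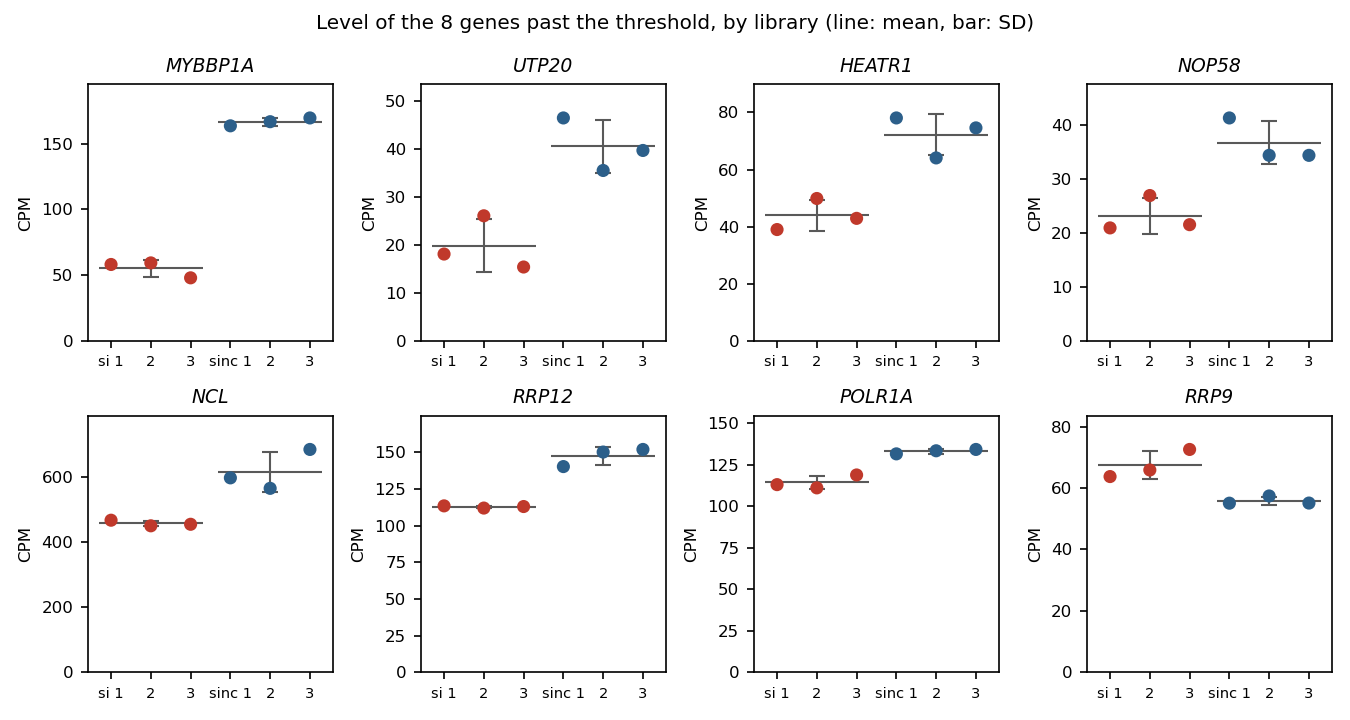
CPM in each library of the 8 genes that passed the test, with si (red) on the left and sinc (blue) on the right of each panel, lines at the mean, bars of 1 SD and axes that start at 0. In the 7 lower genes all si points lie below all sinc points, as in MYBBP1A with 48.0 to 59.3 CPM in si and 164 to 170 CPM in sinc, and in RRP9 all lie above.

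The RefSeq start of MYBBP1A carries CACGTG, the 6-base E-box that MYC with its partner MAX is known to bind. This palindrome, which reads the same on both strands, was searched for in RefSeq promoters of GRCh38.p14, each 300 bases long from 250 before to 50 after the annotated start. A promoter was found for 31 of the 38 genes (none for NOP58, NOLC1, RRP1B, RRP12, BOP1, MYC and TCOF1). Counted per gene, with a gene of several promoters counted once, CACGTG stood in 15 of the 31 (48.4%), in 34 of 138 other ribosome biogenesis genes (24.6%), in 1319 of 10427 tested genes with a promoter (12.6%) and in 2396 of all 27305 genes with a promoter (8.77%). Counted per promoter, it stood in 15 of 37 promoters of the 31 genes (40.5%) and in 2548 of all 35116 promoters (7.26%). The 15 were MYBBP1A, UTP20, RRP9, BYSL, FBL, GAR1, GNL3, LTV1, NAT10, NOP14, NOP2, PES1, PNO1, UTP14A and UTP4. Their median change was -0.01, with 2 lower and 1 higher, against -0.12 in the 16 genes without it, with 3 lower. The match is a description of the letters, not of binding. The 6 promoters of called genes that were found are printed below from 5′ to 3′ on the strand of the gene, with CACGTG in capitals. The first 3 hold it, starting at base 28 in MYBBP1A, counted from the annotated start as base 1, and 10 bases before the start in UTP20 and 5 before it in RRP9; the last 3 do not. The windows are chr17:4555335-4555634 (minus strand) for MYBBP1A, chr12:101279855-101280154 (plus) for UTP20, chr3:51941855-51942154 (minus) for RRP9, chr1:236604467-236604766 (minus) for HEATR1, chr2:231464435-231464734 (minus) for NCL and chr2:86105837-86106136 (minus) for POLR1A.
MYBBP1A: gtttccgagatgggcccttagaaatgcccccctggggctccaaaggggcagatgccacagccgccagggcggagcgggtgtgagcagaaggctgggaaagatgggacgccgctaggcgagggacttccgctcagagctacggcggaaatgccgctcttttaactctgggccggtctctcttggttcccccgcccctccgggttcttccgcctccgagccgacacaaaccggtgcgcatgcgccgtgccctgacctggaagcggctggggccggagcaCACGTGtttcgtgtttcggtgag
UTP20: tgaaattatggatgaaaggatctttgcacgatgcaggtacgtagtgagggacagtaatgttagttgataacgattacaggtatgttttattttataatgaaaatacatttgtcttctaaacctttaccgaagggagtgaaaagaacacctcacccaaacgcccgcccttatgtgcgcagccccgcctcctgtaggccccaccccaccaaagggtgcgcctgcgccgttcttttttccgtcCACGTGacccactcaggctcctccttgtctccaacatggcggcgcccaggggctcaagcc
RRP9: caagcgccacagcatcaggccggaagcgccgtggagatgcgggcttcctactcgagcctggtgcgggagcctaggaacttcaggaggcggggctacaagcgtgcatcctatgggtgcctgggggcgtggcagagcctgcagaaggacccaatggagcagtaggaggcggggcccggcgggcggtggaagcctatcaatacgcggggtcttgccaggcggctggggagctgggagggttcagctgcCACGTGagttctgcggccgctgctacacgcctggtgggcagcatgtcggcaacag
HEATR1: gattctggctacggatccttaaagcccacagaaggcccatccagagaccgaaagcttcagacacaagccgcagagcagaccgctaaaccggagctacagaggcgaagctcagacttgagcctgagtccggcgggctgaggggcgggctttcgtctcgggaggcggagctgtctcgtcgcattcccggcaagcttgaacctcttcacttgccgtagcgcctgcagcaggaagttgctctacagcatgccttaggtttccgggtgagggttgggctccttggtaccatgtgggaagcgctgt
NCL: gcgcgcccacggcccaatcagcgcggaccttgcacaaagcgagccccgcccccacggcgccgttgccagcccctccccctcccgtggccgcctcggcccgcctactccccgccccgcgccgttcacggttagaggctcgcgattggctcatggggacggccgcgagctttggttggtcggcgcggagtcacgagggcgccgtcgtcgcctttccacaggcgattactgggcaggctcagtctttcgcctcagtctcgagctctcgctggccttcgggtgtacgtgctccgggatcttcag
POLR1A: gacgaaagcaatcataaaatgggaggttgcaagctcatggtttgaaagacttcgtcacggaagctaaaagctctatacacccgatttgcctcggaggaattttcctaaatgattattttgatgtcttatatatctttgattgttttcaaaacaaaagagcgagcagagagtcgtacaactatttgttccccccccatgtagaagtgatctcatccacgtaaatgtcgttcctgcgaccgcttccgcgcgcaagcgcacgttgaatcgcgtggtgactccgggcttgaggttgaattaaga

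Of the 4 genes for RNA polymerase I and its factors, 1 was lower in si and 3 did not pass, and all 4 had negative changes, with a median of -0.19. POLR1A, which encodes the largest subunit of the polymerase (chromosome 2, 86020216 to 86106155, minus strand), had 113, 111 and 119 CPM in si and 131, 133 and 134 CPM in sinc. The si and sinc libraries were apart by more than the spread within either. The means were 114 ± 4.04 CPM for si and 133 ± 1.36 CPM for sinc (SD over 3 libraries per group), a log2 fold change of -0.22 (SE 0.05, adjusted p = 0.0452). This call is close to the threshold: it was lost in each fit that left out 1 library except si replicate 3, with log2 fold changes between -0.26 and -0.20 and adjusted p between 0.0365 and 0.173. After a correction for transcript length and GC content the change of POLR1A was 0.08, of the opposite sign. With that correction POLR1B was at 0.12, also of the opposite sign, RRN3 at -0.08 and UBTF at -0.09.

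POLR1B, the second largest subunit, had 33.1, 32.4 and 41.1 CPM in si and 41.1, 39.7 and 39.0 CPM in sinc (log2 fold change -0.17, adjusted p = 0.316). UBTF, which encodes the architectural factor UBF of the ribosomal DNA, had 139, 133 and 150 CPM in si and 154, 159 and 161 CPM in sinc. The UBTF libraries did not overlap, but the change of -0.17 (SE 0.06) did not pass (adjusted p = 0.126). RRN3, the initiation factor TIF-IA, had 17.0, 19.0 and 22.8 CPM in si and 23.9, 21.9 and 29.6 CPM in sinc, with a change of -0.36 (SE 0.15, adjusted p = 0.161). Rows of 3 RRN3 pseudogenes held 17.3% as many counts as RRN3, so its values are uncertain. PDXDC1, which overlaps RRN3 on the opposite strand, had 5584 counts over the si libraries and 7569 over the sinc libraries.

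The 4 box C/D snoRNP genes held 1 gene that was lower, 1 that was higher and 2 that did not pass. NOP58, which encodes a core protein of these particles (chromosome 2, 202265716 to 202303666, plus strand), had 20.9, 26.9 and 21.5 CPM in si and 41.3, 34.4 and 34.3 CPM in sinc. All si libraries were below all sinc libraries. The means were 23.1 ± 3.30 CPM for si and 36.7 ± 4.00 CPM for sinc (SD over 3 libraries per group), a log2 fold change of -0.66 (SE 0.12, adjusted p = 0.0204). The call was lost without si replicate 1 or any 1 of the sinc libraries, with log2 fold changes between -0.79 and -0.57 and adjusted p between 0.0051 and 0.0927 over the 6 fits.

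RRP9 (chromosome 3, 51933430 to 51941941, minus strand) had 63.7, 65.9 and 72.5 CPM in si and 55.1, 57.4 and 55.1 CPM in sinc. All 3 si libraries were above the sinc libraries, which were nearly level. The means were 67.4 ± 4.60 CPM for si and 55.9 ± 1.34 CPM for sinc (SD over 3 libraries per group), a log2 fold change of 0.27 (SE 0.07, adjusted p = 0.0497). It passed by little: the call was lost in each of the 6 fits that leave out 1 library, with log2 fold changes between 0.20 and 0.30 and adjusted p between 0.0582 and 0.183, and the change was 0.08 after the length and GC correction.

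NOP56, the partner of NOP58 in the core of the particle, had 347, 336 and 442 CPM in si and 337, 374 and 353 CPM in sinc. Its change was 0.08 (SE 0.11, adjusted p = 0.67), and the groups overlapped. FBL, which encodes fibrillarin, the methyltransferase of the particle, had 270, 260 and 270 CPM in si and 241, 259 and 238 CPM in sinc. The si libraries of FBL lay just above the sinc libraries, with a change of 0.12 (SE 0.06) that did not pass (adjusted p = 0.221).

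The 3 box H/ACA genes did not pass: edgeR, DESeq2 and limma-voom called 0 of them, and 0 had an unadjusted p under 0.05. DKC1, which encodes the pseudouridine synthase dyskerin, had 83.3, 78.2 and 105 CPM in si and 97.1, 95.6 and 109 CPM in sinc (log2 fold change -0.18, adjusted p = 0.34). NHP2, a core protein of the particle, had 174, 171 and 160 CPM in si and 153, 168 and 161 CPM in sinc (log2 fold change 0.07, adjusted p = 0.51). GAR1, another core protein, had 27.7, 22.8 and 25.3 CPM in si and 22.2, 25.9 and 26.9 CPM in sinc. The groups overlapped in all 3 genes. On the opposite strand RMND5B overlaps NHP2, so reads may be mixed. RMND5B had 3726 counts over the si libraries and 4933 over the sinc libraries.

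Of the 6 small-subunit processome genes 2 were lower in si and 4 did not pass, with a median change of -0.13. UTP20 (chromosome 12, 101280109 to 101386616, plus strand) had 18.1, 26.1 and 15.4 CPM in si and 46.5, 35.5 and 39.7 CPM in sinc. Both groups were spread, and all si libraries were below all sinc libraries. The means were 19.9 ± 5.55 CPM for si and 40.6 ± 5.53 CPM for sinc (SD over 3 libraries per group), a log2 fold change of -1.03 (SE 0.19, adjusted p = 0.0207). The call was lost without si replicate 1 or any 1 of the sinc libraries, with log2 fold changes between -1.28 and -0.88 and adjusted p between 0.00197 and 0.0966 over the 6 fits. After the length and GC correction the change of UTP20 was -0.59.

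HEATR1, whose yeast counterpart is Utp10 and which is known to act in both transcription and processing of the precursor, lies on chromosome 1 (236549005 to 236604504, minus strand). It had 39.0, 49.9 and 42.9 CPM in si and 78.1, 64.1 and 74.6 CPM in sinc, with all si libraries below all sinc libraries. The means were 43.9 ± 5.51 CPM for si and 72.2 ± 7.29 CPM for sinc (SD over 3 libraries per group), a log2 fold change of -0.72 (SE 0.11, adjusted p = 0.0118). The call was lost without sinc replicate 1 or sinc replicate 3, with log2 fold changes between -0.82 and -0.64 and adjusted p between 0.0041 and 0.0656 over the 6 fits, and the change after the length and GC correction was -0.26. LGALS8, which overlaps HEATR1 on the opposite strand, had 1882 counts over the si libraries and 2927 over the sinc libraries; whether the counting used strand is not given in the sources used here.

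The other 4 processome genes had changes between -0.21 and 0.06. NAT10, the acetyltransferase of 18S ribosomal RNA, had 84.6, 84.6 and 105 CPM in si and 101, 108 and 109 CPM in sinc (log2 fold change -0.21, adjusted p = 0.19). NOP14 had 115, 107 and 139 CPM in si and 120, 121 and 122 CPM in sinc. In NAT10 si replicate 3 lay within the sinc range, and in NOP14 it lay above all sinc libraries. UTP14A and UTP4 had changes of -0.05 and 0.06, with overlapping groups. A gene on the opposite strand overlaps NOP14 (NOP14-AS1) and another overlaps UTP4 (CHTF8), so reads of the partners may be mixed. SNTB2 overlaps UTP4 on the same strand and had 858 counts over the si libraries and 1460 over the sinc libraries.

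Late maturation of the small subunit was represented by 5 genes, of which 1 was lower and 4 did not pass. RRP12, which encodes an export and maturation factor (chromosome 10, 97356358 to 97426076, minus strand), had 114, 112 and 113 CPM in si and 140, 150 and 152 CPM in sinc. The si libraries were nearly level, and all lay below the sinc libraries. The means were 113 ± 0.769 CPM for si and 148 ± 6.29 CPM for sinc (SD over 3 libraries per group), a log2 fold change of -0.39 (SE 0.06, adjusted p = 0.00978). The call was lost without si replicate 1 or sinc replicate 3, with log2 fold changes between -0.42 and -0.36 and adjusted p between 0.0135 and 0.0543 over the 6 fits.

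LTV1, which encodes a factor known from yeast for export of the small subunit, had the fewest counts of the 38 genes, with 8.57, 11.3 and 13.5 CPM in si and 15.7, 14.4 and 16.5 CPM in sinc. The groups did not overlap, and the change of -0.48 (SE 0.18) did not pass in edgeR (adjusted p = 0.121). DESeq2 called LTV1 lower (adjusted p = 0.0458), and over all 17 alternatives its adjusted p ranged from 0.0458 to 0.288. TSR1, BYSL and PNO1, which encode small-subunit assembly factors, had changes of -0.08, 0.07 and 0.22, with overlapping groups. On the opposite strand SGSM2 overlaps TSR1, so reads may be mixed. SGSM2 had 13727 counts over the si libraries and 14120 over the sinc libraries.

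None of the 9 large-subunit assembly genes passed in edgeR, and their median change was 0.08. At an unadjusted p under 0.05 there were 2 of these 9, WDR12 and NOP16, while DESeq2 called 1 (WDR12) and limma-voom 0. PES1, BOP1 and WDR12 encode the PeBoW complex, which acts in processing toward the 28S and 5.8S ribosomal RNAs. PES1 had 234, 240 and 238 CPM in si and 220, 228 and 225 CPM in sinc. WDR12 had 38.1, 34.7 and 42.7 CPM in si and 49.2, 44.5 and 47.5 CPM in sinc. The groups did not overlap in either gene, and the signs differed: the change was 0.08 (SE 0.05, adjusted p = 0.325) in PES1 and -0.29 (SE 0.09, adjusted p = 0.08) in WDR12. After the length and GC correction the change of WDR12 was 0.21. BOP1 had a change of 0.13, with overlapping groups.

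NOC2L, a nucleolar protein that also binds histones, had 277, 278 and 311 CPM in si and 243, 267 and 266 CPM in sinc (log2 fold change 0.16, adjusted p = 0.183). NOP2, a methyltransferase of 28S ribosomal RNA, had 184, 188 and 205 CPM in si and 191, 200 and 199 CPM in sinc (log2 fold change -0.03, adjusted p = 0.762). The groups of NOC2L were apart and those of NOP2 overlapped. NOP16 had 91.5, 88.3 and 102 CPM in si and 78.0, 85.7 and 85.2 CPM in sinc, also apart, with a change of 0.18 (adjusted p = 0.164). RRP1, RRP1B and NIP7 had changes of 0.04, -0.13 and 0.24, with overlapping groups. On the opposite strand COG8 overlaps NIP7 and HIGD2A overlaps NOP16, so reads may be mixed. COG8 had 7892 counts over the si libraries and 8111 over the sinc libraries, and HIGD2A had 4704 and 5016.

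**Figure D3:**
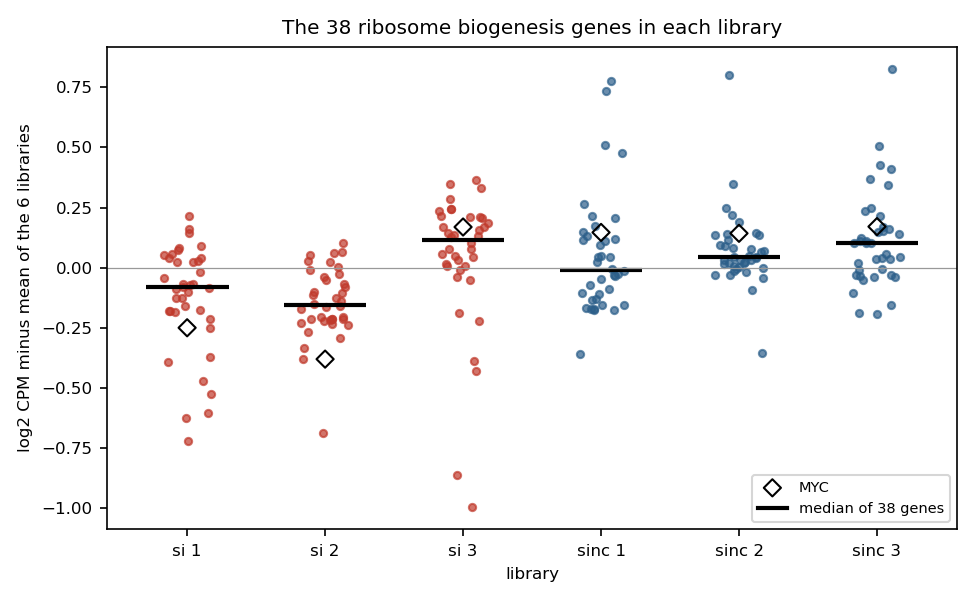
Log2 CPM of each of the 38 genes in each library, less the mean of the gene over the 6 libraries, with 1 point per gene, si (red) on the left, a black line at the median and diamonds for MYC. In si replicate 3 the median over the genes was 0.12, against -0.08 and -0.16 in si replicates 1 and 2 and between -0.01 and 0.10 in the sinc libraries.

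The si libraries differed among themselves. Replicate 3 had the highest of the 3 si values in 27 of the 38 genes (71.1%), a place it took in 35.7% of all genes tested. The summed level of the 38 genes was 5493, 5257 and 6168 CPM in si libraries 1, 2 and 3 and 5868, 6003 and 6181 CPM in sinc libraries 1, 2 and 3, so that si replicate 3 reached the sinc range and the other si libraries did not. MYBBP1A, UTP20 and NHP2 had their lowest si value in replicate 3. Without si replicate 3 the test called 12 of the 38 genes lower (31.6%), beside 5.98% of the 16021 genes tested in that fit. The 5 added were MYC at -0.48 (adjusted p = 0.0129), GNL3 at -0.48 (0.0177), NAT10 at -0.33 (0.0272), WDR12 at -0.38 (0.0342) and POLR1B at -0.30 (0.0436). Over the 6 fits that leave out 1 library the adjusted p of MYC ranged from 0.0129 to 0.441, that of GNL3 from 0.0177 to 0.411 and that of NAT10 from 0.0272 to 0.461. It ranged from 0.0342 to 0.255 for WDR12 and from 0.0436 to 0.61 for POLR1B. The alternative without si replicate 3 is 1 of 6 of its kind, and the other 5 gave between 1 and 6 lower genes.

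Longer genes, and genes of lower GC content, had the more negative changes. Across the 38 genes the log2 fold change had a Pearson correlation of -0.53 (Spearman -0.48) with coding length, and across 12749 genes tested with a coding transcript one of -0.34 (Spearman -0.38); genes are not independent replicates, and all share the same 6 libraries. With GC content the Pearson correlation was 0.22 (Spearman 0.40) across the 38 genes and 0.43 (Spearman 0.49) across the 12749. UTP20 has the longest coding sequence, 8355 bases, followed by HEATR1 with 6432 and POLR1A with 5160. At a limit of 3000 coding bases, chosen after the values were seen, 8 of the 38 genes were longer, of which 5 were lower with a median change of -0.30. Of the 30 shorter genes 2 were lower, NOP58 and NCL, with a median change of 0.0039. Among all genes with a coding transcript 16.9% of the longer ones and 5.52% of the shorter ones were lower, and the longer ones had a median change of -0.30.

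Each library was therefore also corrected for transcript length and GC content. With that correction 4 of the 38 genes were lower (10.5%), beside 2.78% of the 12749 genes: MYBBP1A at -1.62, UTP20 at -0.59, NOP58 at -0.50 and RRP12 at -0.36. HEATR1 at -0.26, NCL at -0.27, POLR1A at 0.08 and RRP9 at 0.08 were no longer called. The change of MYBBP1A, whose coding sequence has 3996 bases and whose transcript has 61.1% GC, moved little. Length and GC were corrected together, and their parts were not tested apart. The correction used transcript length, not coding length. After it the Spearman correlation of the change with coding length was still -0.19 across the 38 genes and -0.19 across the 12749.

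**Figure D4:**
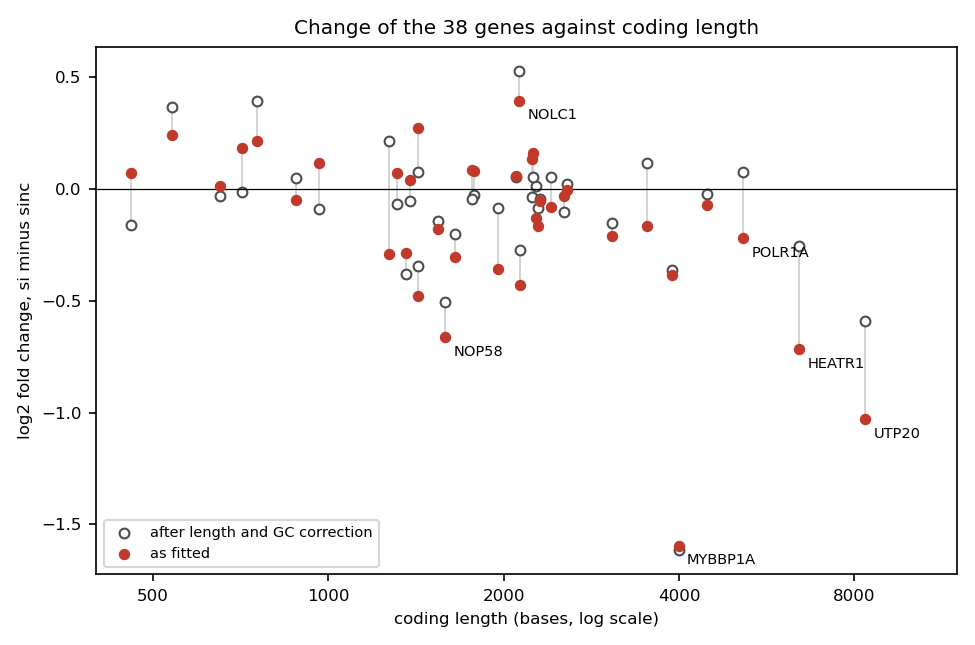
Log2 fold change (si minus sinc) of the 38 genes against coding length in bases on a log axis, as fitted (filled) and after correction for transcript length and GC content (open), with a line joining both values of a gene and some genes named. The gene farthest right, UTP20 with 8355 bases, moves up from -1.03 to -0.59 with the correction, while MYBBP1A is at -1.62 with it.

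The wider pathway was described with 181 other genes in 7 lists, of which 179 were tested: 17 were lower, 7 were higher and 155 did not pass, with a median change of -0.01. The counts of each list stand beside 6.00% lower and 4.14% higher among all genes tested. All are without the length and GC correction. With it 6 of the other genes were lower and 3 higher. Of 20 further genes of RNA polymerase I transcription 3 were lower and 2 higher. BAZ2A, which encodes a subunit of the silencing complex of ribosomal DNA, averaged 198 ± 14.7 CPM in si and 275 ± 5.95 CPM in sinc (log2 fold change -0.47, adjusted p = 0.00913). The polymerase subunit POLR1F averaged 3.66 ± 0.453 CPM in si and 7.50 ± 1.59 CPM in sinc, and the RNA helicase DDX21 averaged 59.4 ± 10.6 CPM in si and 92.4 ± 7.76 CPM in sinc (adjusted p = 0.0225 and 0.0273). The 2 higher genes were SIRT7 at 0.32 and POLR2H at 0.29 (adjusted p = 0.0321 and 0.0382). The median change of the 20 genes was 0.02.

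Of 41 further processome genes 7 were lower and 1 higher, with a median change of -0.10. UTP3 averaged 19.7 ± 0.982 CPM in si and 36.9 ± 1.97 CPM in sinc (log2 fold change -0.91, adjusted p = 0.00132). NOP9 averaged 72.8 ± 3.48 CPM in si and 117 ± 6.95 CPM in sinc, and FCF1 averaged 22.2 ± 1.94 CPM in si and 35.9 ± 1.60 CPM in sinc (log2 fold changes -0.68 and -0.70). Among 12 further genes of snoRNP subunits and assembly ZNHIT6 was lower (-0.41) and no other passed. Of 10 genes of late small-subunit maturation the nuclease NOB1 was lower (-0.29) and the methyltransferase cofactor TRMT112 was higher (0.31).

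For the large subunit 53 further genes were tested, and 2 were lower with none higher. MDN1, a very large AAA ATPase that removes assembly factors, averaged 24.6 ± 8.46 CPM in si and 59.6 ± 4.26 CPM in sinc (log2 fold change -1.28, SE 0.22, adjusted p = 0.015). SDAD1 was the other, at -0.50. Of 26 genes for nucleases of ribosomal RNA processing, their subunits and cofactors, 2 were higher. These were the exosome subunit EXOSC5 at 0.44 and POP4, a protein of RNase P and MRP, at 0.29. In the MYC network 3 of 17 genes were lower and 1 higher. TRRAP, a large cofactor of MYC, averaged 129 ± 4.43 CPM in si and 182 ± 5.93 CPM in sinc (log2 fold change -0.49, adjusted p = 0.00478). MLXIP fell by 0.43. MNT, named after its values were seen and like MXD4 a MAX partner that represses transcription, averaged 16.9 ± 3.35 CPM in si and 26.5 ± 2.26 CPM in sinc (log2 fold change -0.65, adjusted p = 0.039). MXD4, the gene of this list that was higher, averaged 65.2 ± 6.57 CPM in si and 45.7 ± 2.77 CPM in sinc (log2 fold change 0.51, adjusted p = 0.017).

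MYBBP1A and 3 other of the 38 genes share an 11-base run with the coding sequence of SOGA1. It lies in a stretch of 21 bases that was singled out with results of these data known, on the transcripts of GENCODE 29. Whether the run has a part in any change was not tested. The lines give the SOGA1 stretch (chromosome 20, coding bases 1236 to 1256) and the aligned 21 bases of the coding sequence of MYBBP1A (chromosome 17, 2331 to 2351), RRP12 (chromosome 10, 3606 to 3626), TSR1 (chromosome 17, 1116 to 1136) and RRP9 (chromosome 3, 201 to 221), 5′ to 3′, with the shared run in capitals.
SOGA1 stretch: gaAGGAGGAGCTGctgaagta
MYBBP1A: cgAGGAGGAGCTGggggatga
RRP12: ggAGGAGGAGCTGgagatacc
TSR1: tgAGGAGGAGCTGagcgaggc
RRP9: ggAGGAGGAGCTGgaggaaac

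The aligned bases of MYBBP1A, RRP12 and RRP9 match the stretch at 14 of 21 places and those of TSR1 at 13. The log2 fold changes of these 4 genes were -1.59 in MYBBP1A, -0.39 in RRP12, -0.08 in TSR1 and 0.27 in RRP9. A run of 11 or more bases with the stretch was present in 9 of the 38 genes (23.7%), against 8.93% of 12748 genes tested with a coding transcript. Stretch and genes were both chosen with results known, so these shares are a description and no test. The median coding length was 2026.5 bases in the 38 genes and 1428 in all genes tested with a coding transcript. The part of length in the shares was not tested. The longest run among the 38 was 12 bases, in RRP1, whose change was 0.04. TGAAGTA, the 7 bases at the end of the stretch, stood in the 3' UTR of 2 of the 38 genes (5.26%), LTV1 and POLR1B, against 11.5% of the 12748 genes.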

How the data were processed

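Poly(A) RNA was made into strand-specific (dUTP) libraries amplified by PCR, per the labels' protocols. The authors deposited whole-number counts per gene; CASAVA and StringTie were used, per the submitters' processing notes, while the versions, aligner, genome build, annotation and use of strand were not given in the sources used here. Without molecular identifiers, copies made by PCR count more than once, so a count is not a molecule. Columns were matched to samples by name.

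Counts were filtered with filterByExpr (minimum count 10), scaled by TMM and tested with edgeR 4.0.16 in R 4.3.3 (glmQLFit, glmQLFTest, group as the only term, Benjamini-Hochberg, threshold 0.05). The SE is the size of the log2 fold change divided by the root of its F statistic. The common biological coefficient of variation was 18.8%. The script was tested on simulated data. The smallest chi-square per gene between libraries of a group was 14.2, so none was taken for a repeat. Genes with the same replicate number in si and sinc deviated with correlations of -0.18, -0.03 and 0.15, so the numbers were not treated as pairs.

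The 38 genes, their roles, the other lists and the markers were chosen with earlier results of these data known. Named were all called genes, MYC, NCL, NPM1 and FBL, the 2 most abundant genes of a role without calls, and per other list up to 3 called genes with the smallest adjusted p. NOP16, LTV1, UBTF, NOLC1, GNL3 and the further genes of the 38 were added for a full account, as were SIRT7 and POLR2H. List genes without a row were not analysed here. The alternatives tried were scaling by RLE, upper quartile or total count, no filter, a minimum count of 50, DESeq2 1.42.0, limma-voom (limma 3.58.1), a block for the replicate number, leaving out each library in turn, and a correction of each library by splines (4 degrees of freedom each) on transcript length and GC content, entered as offsets. Length and sequence came from the coding transcript with the longest coding sequence in GENCODE 29 (12749 of 15562 genes); its positions are on GRCh38. Promoters are RefSeq entries of GRCh38.p14.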

Additional observations from a re-analysis of the deposited data

How the results depend on the processing

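The count of 7 lower genes among the 38 was 4 with the replicate block, 4 with the length and GC correction, 1 with both, and between 1 and 12 when 1 library was left out; under every other alternative it lay between 6 and 9. The single higher gene, RRP9, was called by DESeq2 together with 1 other (2 in all) and not with RLE or total-count scaling, without a filter, with limma-voom, with the replicate block or with the correction (0 each), and the count was 0 to 1 with 1 library left out. The gene called higher without sinc replicate 3, and the 1 called with the replicate block and the correction together, was NOLC1. POLR1A turned to 0.075 with the correction and to 0.064 with the replicate block and the correction. Of the 179 other pathway genes, 17 were lower: 30 with DESeq2, 8 with the replicate block, 6 with the correction, 4 with both, and 5 to 28 with 1 library left out. Of the same genes 7 were higher: 14 with upper-quartile scaling, 1 without a filter, 18 with DESeq2, 1 with the replicate block, 3 with the correction, 11 on the genes with a coding transcript without it, 1 with both, and 0 to 9 with 1 library left out. Over all genes the 934 lower became 1622 with DESeq2, 336 with the replicate block, 354 with the correction, 184 with both, and 172 to 1782 with 1 library left out. The 645 higher became 1005 with upper-quartile scaling, 163 without a filter, 1304 with DESeq2, 102 with the replicate block, 259 with the correction, 87 with both, and 31 to 781 with 1 library left out. The cause of these differences was not tested. The replicate numbers are not shown to pair the libraries. SOGA1 lay between -1.47 and -1.13 and MYBBP1A between -1.66 and -1.51 in all 17 alternatives, and both passed in each.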
